A study of Mus musculus with 26 samples.

Results

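The 9 genes described here, Dnmt1, Uhrf1, Dnmt3a, Dnmt3b, Dnmt3l, Tet1, Tet2, Tet3 and Tdg, encode the enzymes that write, copy and remove cytosine methylation in mouse DNA, together with the proteins that direct them. They were chosen by name for what they encode, with no measured value used as a filter. Earlier results of these data were known when they were chosen. All 9 of 9 were found among the 55291 genes of the count table, and all 9 were among the 20953 genes that passed the low-count filter and were tested.

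Poly(A) RNA was sequenced from R1 mouse embryonic stem cells (ESCs) kept in LIF medium on gelatin, in 13 groups of 2 libraries. Wild-type cells were left untreated (ESC), given the solvent (DMSO), given all-trans retinoic acid at 0.53 µM for 48 h (RA), or given pladienolide B, an inhibitor of the splicing factor SF3B, at 4 nM for 4 days (PlaB). Dux, the transcription factor that switches on the program of the two-cell embryo in ESCs, was overexpressed as the wild-type form (Dux OE) or as a form labelled DuxR70A, used in the study as deficient in phase separation (DuxR70A OE), and its target Zscan4 was overexpressed as well (Zscan4 OE), each with doxycycline at 4 µg/mL for 24 h. A line with knockdown of Dux by shRNA was studied with RA (Dux KD RA), with PlaB (Dux KD PlaB) and with Zscan4 overexpression (Dux KD Zscan4 OE), and a line without the Tdpoz super-enhancer, deleted by CRISPR (SE KO), was studied with RA (SE KO RA), with PlaB (SE KO PlaB) and with Dux overexpression (SE KO Dux OE). The labels of Dux KD Zscan4 OE give no dose or time, and those of DMSO give no time. The same DMSO group is the control for RA at 48 h and for PlaB at 4 days. An effect of either drug against DMSO therefore cannot be told apart from one of time in culture. Doxycycline lines without doxycycline, and the Dux KD and SE KO lines without an inducer, were not among the groups, so the effect of a transgene cannot be told apart from that of its line or of doxycycline, and the effect of Dux KD or SE KO can be read only under an inducer. One library, SE KO RA replicate 1, carries the SE KO name in its title but a wild-type genotype in another label and was grouped by its title.

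Methylation of cytosine in CpG dinucleotides is copied at each replication. UHRF1 binds DNA that is methylated on the parental strand only and recruits DNMT1, the maintenance methyltransferase, which methylates the new strand. DNMT3A and DNMT3B place new methyl groups, and DNMT3L, which has no catalytic activity, binds and stimulates them in germ cells and ESCs. TET1, TET2 and TET3 oxidise methylcytosine, and the glycosylase TDG cuts the most oxidised forms out of DNA so that base excision repair can put an unmodified cytosine back. ESCs in serum and LIF keep their DNA methylated while expressing both TET and DNMT3 enzymes, and the two-cell-like state that Dux and Zscan4 mark is known for reduced DNA methylation. The values below are RNA levels and do not measure protein or methylation.

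Positions are on the mm10 build. On the plus strand are Dnmt3a (chr12:3806007-3914443), Dnmt3b (chr2:153649450-153687730), Dnmt3l (chr10:78041947-78063622), Uhrf1 (chr17:56303321-56323486) and Tdg (chr10:82629828-82650799). On the minus strand are Dnmt1 (chr9:20907209-20959888), Tet1 (chr10:62804570-62908996), Tet2 (chr3:133463679-133545139) and Tet3 (chr6:83362373-83459084). Exons of 4 of the genes overlap exons of a gene on the opposite strand, and the strand setting of the counting is not given in the sources used here. The partner of Dnmt3l is Aire, with 5560 reads over all libraries, that of Tdg is Glt8d2 with 556, that of Tet2 is Gm42567 with 15, and that of Dnmt3a is Dnmt3aos with 8.

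RefSeq promoter windows, which run from 250 bases before to 50 bases after a start on GRCm38.p6 (the assembly also called mm10), were found for 9 of 9 genes, 16 windows in all. The members differ in the CpG content of these windows, which hold the very dinucleotide their products act on. The median over all 32851 windows is 7 CpG dinucleotides. Tet2 has 57, Dnmt3b 30, Tdg 26, Tet3 22 and Tet1 17, and the windows of Dnmt3a hold 46, 47 and 18, those of Dnmt1 33, 12 and 2, and those of Uhrf1 12 and 33. Dnmt3l has 6, 4 and 3. Tet2, which has the window with the most CpG, and Dnmt3l, none of whose windows reaches the median, are shown as the 150 bases before the start, on the gene's strand, with CpG in capitals (Dnmt3l at chr10:78042137-78042286, plus strand; Tet2 at chr3:133544391-133544540, minus strand).
Dnmt3l: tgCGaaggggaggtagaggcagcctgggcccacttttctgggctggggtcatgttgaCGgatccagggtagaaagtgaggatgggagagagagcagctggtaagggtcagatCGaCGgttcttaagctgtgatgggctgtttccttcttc
Tet2: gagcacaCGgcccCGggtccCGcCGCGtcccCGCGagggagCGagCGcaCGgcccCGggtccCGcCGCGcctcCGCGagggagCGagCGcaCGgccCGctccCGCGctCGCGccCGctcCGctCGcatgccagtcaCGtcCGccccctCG

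The stretch of Dnmt3l holds 4 CpG and that of Tet2 holds 30. The windows were also searched on both strands for letters linked to factors of this study or to the cell cycle. TTCCCGC, a form of the E2F site, was in 1 of 16 member windows, that of Uhrf1, and in 4.6% of all windows. TTGGCGC, another form of that site, was in 1 of 16, that of Dnmt1, and in 2.45% of all. Both stretches are shown because Dnmt1 and Uhrf1 act as a pair, and any link of these letters to the levels of the 2 genes was not tested. The motif is in capitals (Uhrf1 at chr17:56303237-56303320, plus strand, 100 to 17 bases before the start; Dnmt1 at chr9:20952574-20952603, minus strand, 21 to 50 bases after the start).
Uhrf1: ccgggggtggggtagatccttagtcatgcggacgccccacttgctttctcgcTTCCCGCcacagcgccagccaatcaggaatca
Dnmt1: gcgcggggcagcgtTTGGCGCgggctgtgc

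TGCACAC, the letters of the ZSCAN4 site, was in 2 of 16 member windows, 1 of Uhrf1 and that of Tet3, and in 4.4% of all windows. The double homeobox site of DUX, searched as TGATT and AATCA with 1 base of any kind between them, was in 0 of 16 member windows and in 0.0335% of all. A direct repeat, searched as GGTCA and GGTCA with 5 bases of any kind between them, was in 0 of 16 and in 0.0761% of all. That spacing is not the usual one of retinoic acid receptor sites, so the search does not cover those sites. A match here describes letters in a window of 300 bases and is not a measured binding site.

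Library totals ran from 14401452 to 39402840 counts with a median of 18276934, so that 3 counts stood for 0.0796 to 0.226 CPM (counts scaled to the library total). Every member had at least 53 counts in every library. The labels do not say whether the 2 libraries of a group came from separate cultures, so the spread between them may be technical. P-values and SEs rest on a spread estimated for each gene over all 13 groups, not on the 2 groups compared. They can be too small where the libraries of a group differ more than in the other groups. The libraries of SE KO PlaB and Dux KD Zscan4 OE differed most within a group (chi-square per degree of freedom over genes 30.2 and 26.1, against at most 9.81 in the other groups), and mitochondrial genes took 5.2% and 4.44% of counts in SE KO PlaB against 1.4% and 1.56% in PlaB. All 5 ESC markers examined (Pou5f1, Sox2, Nanog, Zfp42 and Dppa5a) were above 3 counts in every group, with a summed level of 2460 to 5480 CPM. The sum hides changes in opposite directions. In PlaB against DMSO, Sox2 (log2 fold change -4.50), Nanog (-3.62) and Pou5f1 (-2.15) were lower, and Zfp42 (0.40) and Dppa5a (0.86) were higher. The transcript of Dux, counted as Duxf3, had 0 to 3 counts in ESC and 0 to 1 in DMSO. Its counts were 49 to 59 in RA, 181 to 191 in PlaB, 17 to 27 in Zscan4 OE and 48 to 55 in Dux OE. It had 6 to 16 in Dux KD RA, 0 to 1 in Dux KD PlaB and 0 to 1 in Dux KD Zscan4 OE. Both DuxR70A OE libraries had 0 counts of it, so that label could not be checked from this gene. Whether reads of a Dux transgene are counted as Duxf3 was not tested, so its counts do not check the Dux OE label either. Tdpoz4, a gene beside the deleted super-enhancer, had 40 to 53 counts in PlaB and 5 to 13 in SE KO PlaB, and 30.8 to 34.4 CPM in Dux OE and 8.93 to 11.7 CPM in SE KO Dux OE. With 4 to 8 counts in RA and 4 to 7 in SE KO RA (log2 fold change -0.15, adjusted p = 0.876) it did not check the SE KO RA label.

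**Figure D1:**
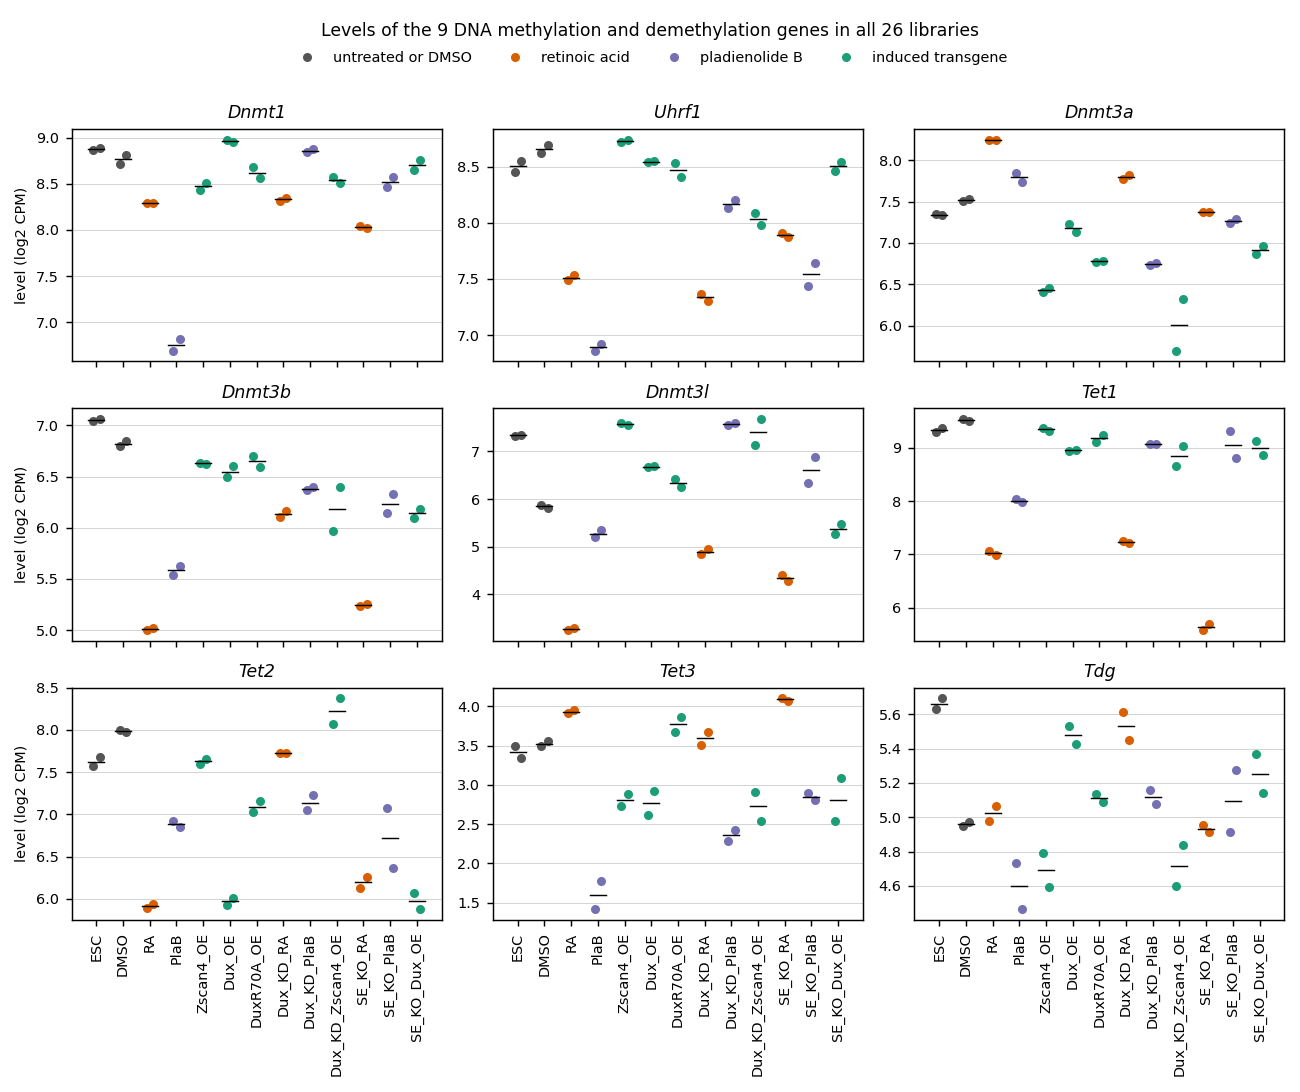
Level of each of the 9 genes in every library, in CPM on a log scale, with 1 panel per gene and the 13 groups along the horizontal axis (KD, KO and OE as in the text). Each point is 1 library and each bar the mean of the 2 libraries. Dnmt1 and Uhrf1 are lowest in PlaB, Tet1 in SE KO RA, and Dnmt3l in RA.

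In untreated ESCs the maintenance pair had the highest TPM of the members, followed by Dnmt3l and Tet1. TPM are counts scaled to the exon length of the gene and to the library total (± SD, n = 2). That length was 16642 bases for Dnmt3a and 2988 for Dnmt3l, which stood at 162.4 and 161.7 CPM in ESC. The order in TPM and the family shares below depend on these lengths and are not counts of molecules. Uhrf1 stood at 244.8 ± 11.0 TPM, Dnmt1 at 183 ± 0.984 TPM, Dnmt3l at 155.5 ± 0.392 TPM and Tet1 at 119.6 ± 3.72 TPM. Dnmt3b followed at 74.67 ± 0.607 TPM, Tet2 at 33.62 ± 1.78 TPM, Dnmt3a at 28.03 ± 0.168 TPM and Tdg at 27.02 ± 0.801 TPM. Tet3 was the lowest of the 9, at 1.82 ± 0.144 TPM. Across the 13 groups Dnmt3l had the widest range of the members, 19.9-fold between the highest and the lowest group mean in CPM, followed by Tet1 at 14.7-fold. Tet3 varied 5.75-fold, Tet2 4.99-fold, Dnmt1 4.63-fold, Dnmt3a 4.62-fold, Dnmt3b 4.12-fold and Uhrf1 3.58-fold, and Tdg had the narrowest range at 2.08-fold.

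The order of the 13 groups differed from gene to gene. Dnmt1 was highest in Dux OE (498.7 ± 7.17 CPM), with ESC (469.9 ± 3.47) and Dux KD PlaB (464.1 ± 7.5) next and overlapping each other. Its range from DMSO (434.5 ± 19.1) down to Zscan4 OE (354.6 ± 12.3) held 6 groups in which each overlapped its neighbour. Below them Dux KD RA, RA and SE KO RA lay at 322.3, 312.8 and 261.3 CPM, and PlaB stood apart at 107.8 ± 6.53 CPM. Uhrf1 was highest in Zscan4 OE (424.6 ± 4.37 CPM), then DMSO (395 and 413 CPM), and the 4 groups Dux OE, SE KO Dux OE, ESC and DuxR70A OE, between 355.7 and 372.9 CPM, overlapped their neighbours. PlaB was its lowest group as well, at 118.7 ± 3.7 CPM.

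Dnmt3a was highest in RA (304 ± 0.928 CPM) and lowest in Dux KD Zscan4 OE (65.74 ± 19.9 CPM), and only 1 of its 12 neighbouring pairs of groups overlapped, Dux KD RA (223.1) and PlaB (222.0). Dnmt3b ran the other way, with ESC at the top (132.7 ± 1.34 CPM) and RA at the bottom (32.18 ± 0.339 CPM). Dnmt3l was highest in Dux KD PlaB (190.5 ± 2.2 CPM), Zscan4 OE (189.6 ± 4.1), Dux KD Zscan4 OE (172.5 ± 46.4) and ESC (161.7 ± 0.731), in which each overlapped the next, and lowest in RA (9.557 ± 0.184).

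Tet1 was highest in DMSO (732 ± 16.0 CPM), and its 8 next groups, from Zscan4 OE (649.3) to Dux KD Zscan4 OE (464.6), overlapped their neighbours except between ESC and DuxR70A OE. The 3 RA groups were its lowest, at 150.6, 130.5 and 49.65 CPM in Dux KD RA, RA and SE KO RA. Tet2 was highest in Dux KD Zscan4 OE (300.1 ± 45.3 CPM) and lowest in SE KO Dux OE, Dux OE and RA (62.85, 62.64 and 60.09 CPM), which overlapped one another. Tet3 was highest in SE KO RA (16.9 ± 0.256 CPM) and lowest in PlaB (2.94 ± 0.527 CPM). Tdg lay between 50.52 ± 1.6 CPM in ESC and 24.25 ± 3.24 CPM in PlaB, and 8 of its 12 neighbouring pairs of groups overlapped.

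The first comparison was between the 2 sets of control cells. Dnmt3l, the cofactor, was at 161 and 162 CPM in the ESC libraries and at 58.5 and 56.3 CPM in the DMSO libraries. Both DMSO libraries were below both ESC libraries, and Dnmt3l fell by 1.49 on the log2 scale (SE 0.139, adjusted p = 2.03e-09 from the quasi-likelihood test of edgeR, adjusted over all genes tested by the method of Benjamini and Hochberg, as for every adjusted p below). A gene was called changed at an adjusted p under 0.05 and a log2 fold change of at least 1 in either direction. Dnmt3l was the 1 member of 9 called between DMSO and ESC, where 16.2% of all genes tested were called. Tdg had a log2 fold change of -0.70 (SE 0.119, adjusted p = 2.39e-05), below the fold threshold. These are bulk samples, in which fewer cells of a type and less RNA per cell cannot be told apart.

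Retinoic acid is known to drive ESCs to differentiate and to raise the fraction of two-cell-like cells. Against DMSO, 5 of the 9 members fell in RA and 0 rose, where 31.0% of all genes tested were called. The maintenance factor Uhrf1 went from 395 and 413 CPM in DMSO to 179.5 and 185 CPM in RA, a fall by 1.15 on the log2 scale (SE 0.0764, adjusted p = 8.28e-13). Its partner Dnmt1, at 421 and 448 CPM in DMSO and 314 and 312 CPM in RA, had a log2 fold change of -0.47 (SE 0.0709, adjusted p = 2.05e-06), short of the fold threshold. The RA libraries lay below the DMSO libraries for both genes, by more than the spread between replicates.

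The de novo enzymes parted in RA. Dnmt3b stood at 111 and 115 CPM in DMSO and at 31.9 and 32.4 CPM in RA, and fell by 1.81 (log2; SE 0.101, adjusted p = 2.24e-14). Dnmt3l stood at 58.5 and 56.3 CPM against 9.43 and 9.69 CPM, and fell by 2.59 (SE 0.162, adjusted p = 2.51e-13), and its log2 fold change was -4.08 with ESC as the control. Dnmt3a stood at 182 and 186 CPM against 303 and 305 CPM, both RA libraries above both DMSO libraries, with a log2 fold change of 0.73 (adjusted p = 1.17e-06) that did not reach the fold threshold.

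Among the TET enzymes, Tet1 had the largest fall of any member apart from Dnmt3l, from 743 and 721 CPM in DMSO to 134 and 127 CPM in RA (log2 fold change -2.49, SE 0.123, adjusted p = 2.23e-15). Tet2 went from 256 and 251 CPM to 59.1 and 61.1 CPM (-2.08, SE 0.138, adjusted p = 8.84e-13). Tet3, at 11.1 and 11.7 CPM in DMSO and 14.9 and 15.3 CPM in RA, had a log2 fold change of 0.41 (adjusted p = 0.0306), and Tdg one of 0.06 (adjusted p = 0.686), which was -0.64 with ESC as the control. The call on Uhrf1 was lost with library size as the only scaling (-0.95) and with ESC as the control (-0.99).

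Markers of other cells moved with RA. The summed level of 5 primitive endoderm markers, of which none was at or under 3 counts in any group, was 80.0 to 82.6 CPM in RA against 5.81 to 7.66 CPM in DMSO, and that of 7 two-cell-like markers was 466 to 536 CPM in RA against 3.02 to 5.11 CPM in DMSO, where 4 of 7 (Zfp352, Tcstv3, Tdpoz4 and Duxf3) were at or under 3 counts. Their part in the levels of the members was not tested.

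**Figure D2:**
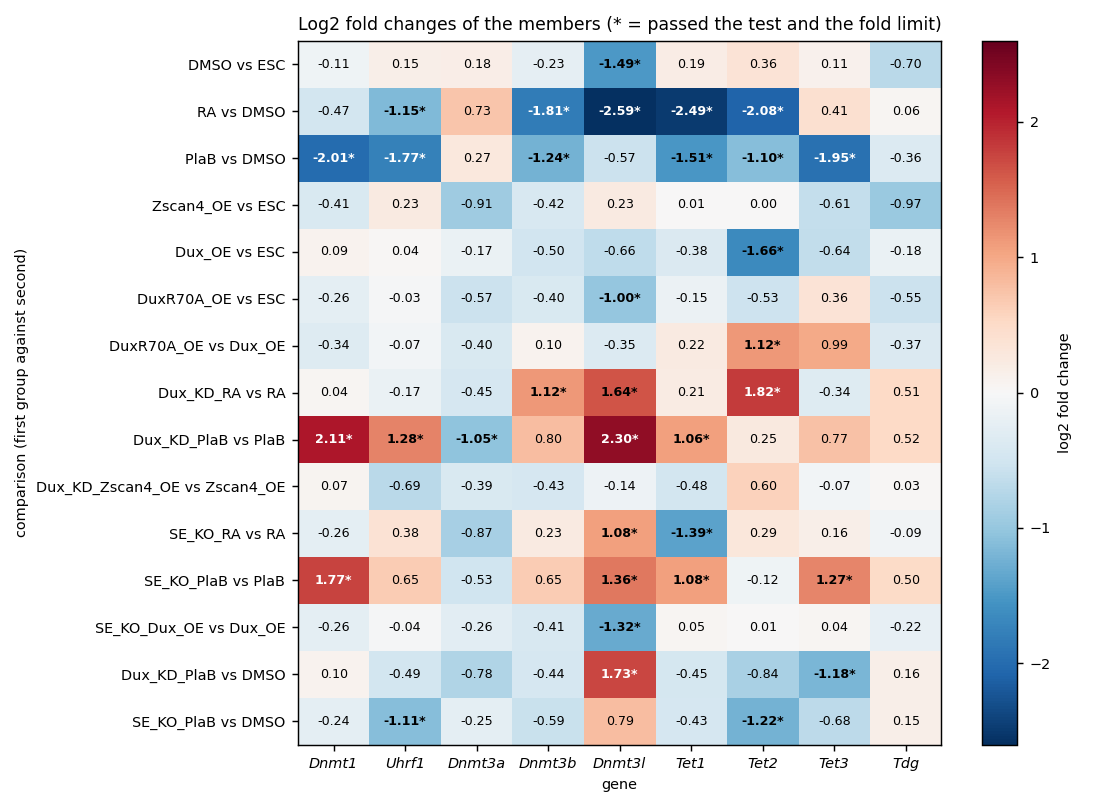
Log2 fold change of the 9 genes (columns) in the 15 comparisons between 2 groups (rows), with the value written in each cell. Red is higher and blue lower in the first-named group, and an asterisk marks the calls. The PlaB and RA rows are mostly blue, and the Dux KD PlaB and SE KO PlaB rows against PlaB are mostly red, with Dnmt3a blue in both.

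Pladienolide B gave the largest count of members called. Against DMSO, 6 of the 9 members fell and 0 rose, in a comparison in which 58.9% of all genes tested were called and the median log2 fold change over all genes was 0.22. The maintenance pair fell most among the abundant members. Dnmt1 was at 421 and 448 CPM in DMSO and at 103 and 112 CPM in PlaB, and fell by 2.01 (log2; SE 0.0741, adjusted p = 3.99e-19). Uhrf1 was at 395 and 413 CPM in DMSO and at 116 and 121 CPM in PlaB, and fell by 1.77 (SE 0.078, adjusted p = 2.1e-17). In neither gene did the groups overlap, and the difference was many times the gap between the 2 libraries of a group.

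Of the de novo group only Dnmt3b fell in PlaB against DMSO, from 111 and 115 CPM to 46.5 and 49.4 CPM (log2 fold change -1.24, SE 0.0983, adjusted p = 7.28e-12), and this call was lost with library size as the only scaling (-0.98). Dnmt3l stood at 36.8 and 40.5 CPM in PlaB, a log2 fold change of -0.57 against DMSO (adjusted p = 0.000828). The value depended on the control, since Dnmt3l was already low in DMSO: against ESC it was -2.06 and passed both thresholds. Dnmt3a, at 230.0 and 214 CPM in PlaB, had a log2 fold change of 0.27 against DMSO (adjusted p = 0.0208).

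All 3 TET genes fell in PlaB. Tet1 went from 743 and 721 CPM in DMSO to 262 and 252 CPM (log2 fold change -1.51, SE 0.119, adjusted p = 5.78e-12). Tet3, the least abundant, went from 11.1 and 11.7 CPM to 2.57 and 3.31 CPM (-1.95, SE 0.188, adjusted p = 4.03e-10). Tet2 went from 256 and 251 CPM to 121 and 116 CPM (-1.10, SE 0.133, adjusted p = 3.03e-08), a call that was lost under DESeq2's size factors (-0.95), with library size as the only scaling (-0.84) and with ESC as the control (-0.74). Tdg, at 30.8 and 31.3 CPM in DMSO and 26.5 and 21.96 CPM in PlaB, had a log2 fold change of -0.36 (adjusted p = 0.0098), and -1.06 with ESC as the control.

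Two-cell-like markers reached a summed level of 7180 to 7250 CPM in PlaB, and 5 trophectoderm markers 433 to 443 CPM against 15.7 to 17.0 CPM in DMSO, where Cdx2, Gata3 and Elf5 were at or under 3 counts. Their part in the members' levels was not tested.

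**Figure D3:**
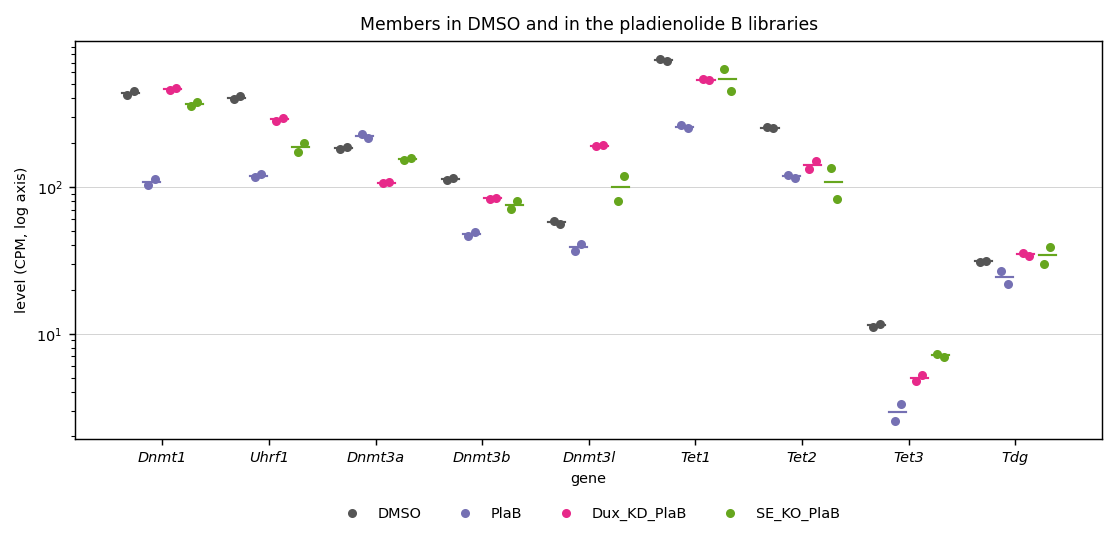
Levels in the DMSO, PlaB, Dux KD PlaB and SE KO PlaB libraries, in CPM on a log scale, with the genes along the horizontal axis and 1 point per library. For Dnmt1 the 2 PlaB libraries lie at 103 and 112 CPM, and the Dux KD PlaB and SE KO PlaB libraries between 354 and 469 CPM, near DMSO.

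Overexpression of Dux itself left most members near their level in ESC. Tet2 was the 1 member of 9 that fell in Dux OE, from 189.7 and 205 CPM in ESC to 60.8 and 64.5 CPM, below both ESC libraries (log2 fold change -1.66, SE 0.14, adjusted p = 4.03e-10), where 9.51% of all genes tested were called. Dnmt3l stood at 101 and 104 CPM there, with a log2 fold change of -0.66 (adjusted p = 0.000548), which turned to 0.84 with DMSO as the control (adjusted p = 1.84e-05). Against ESC, Tet3 had a log2 fold change of -0.64 (adjusted p = 0.00884), Dnmt3b -0.50 (adjusted p = 0.000226) and Tet1 -0.38 (adjusted p = 0.0159). For the maintenance pair the 95% interval of the log2 difference ran from -0.06 to 0.23 for Dnmt1 and from -0.12 to 0.19 for Uhrf1. Two-cell-like markers summed to 3240 to 3330 CPM in Dux OE.

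The libraries labelled DuxR70A OE differed from Dux OE in the same gene. Tet2 was at 131 and 142 CPM in DuxR70A OE, above both Dux OE libraries and below both ESC libraries (189.7 and 205 CPM). Against Dux OE it rose by 1.12 on the log2 scale (SE 0.139, adjusted p = 3.51e-07). It was the 1 member of 9 called there, where 13.6% of all genes tested were called. Tet3 had 12.7 and 14.4 CPM in DuxR70A OE and 6.05 and 7.50 CPM in Dux OE, which gave 0.99 on the log2 scale (SE 0.177, adjusted p = 5.8e-05), just under the fold threshold, which was 1.19 with library size as the only scaling, 1.16 without Dux OE replicate 2 and 1.08 without DuxR70A OE replicate 1, and then passed. Against ESC, Dnmt3l fell in DuxR70A OE, from 161 and 162 CPM to 85.0 and 76.1 CPM (2.01-fold lower, log2 SE 0.137, adjusted p = 9.38e-07), the 1 member of 9 called where 16.9% of all genes tested were called. That value lay on the fold threshold. The call was lost under 6 alternatives, and without DuxR70A OE replicate 2 (-0.92) or ESC replicate 2, and with DMSO as the control the log2 fold change was 0.49. In these libraries 6 of 7 two-cell-like markers were at or under 3 counts.

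Zscan4 overexpression gave 0 of 9 members called by edgeR and 0 by DESeq2, where 11.6% of all genes tested were called. Without the fold threshold, 6 of 9 passed an unadjusted p under 0.05, and the same 6 an adjusted p under 0.05. The 11.6% includes the fold threshold and is not the share to set beside that count. The largest differences were in Tdg, at 27.6 and 24.1 CPM in Zscan4 OE and 49.4 and 51.7 CPM in ESC (log2 fold change -0.97, SE 0.121, adjusted p = 4.44e-07), and in Dnmt3a, at 84.8 and 87.4 CPM against 163 and 162 CPM (-0.91, SE 0.108, adjusted p = 1.9e-07). Without Zscan4 OE replicate 1 the value of Tdg was -1.07 and passed both thresholds, as it did without ESC replicate 1, and with DMSO as the control it was -0.27 (adjusted p = 0.0921). Dnmt1 had a log2 fold change of -0.41 (adjusted p = 4.61e-05) and Uhrf1 one of 0.23 (adjusted p = 0.0178). With DMSO as the control, Dnmt3a (-1.09) and Dnmt3l (1.72) passed both thresholds.

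With knockdown of Dux under PlaB, the maintenance pair lay nearer its level in DMSO. Against PlaB, 4 of the 9 members rose in Dux KD PlaB and 1 fell, where 54.9% of all genes tested were called and the median log2 fold change over all genes was -0.14. Dnmt1 was at 459 and 469 CPM in Dux KD PlaB against 103 and 112 CPM in PlaB, and rose by 2.11 (log2; SE 0.0743, adjusted p = 2.06e-19). Uhrf1 was at 281 and 295 CPM against 116 and 121 CPM, and rose by 1.28 (SE 0.0773, adjusted p = 2.35e-14). Against DMSO the log2 difference of Dnmt1 in Dux KD PlaB was 0.10 (95% interval -0.05 to 0.24, adjusted p = 0.328), and that of Uhrf1 was -0.49 (SE 0.0755, adjusted p = 1.25e-05).

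Dnmt3l went further. It was at 189 and 192 CPM in Dux KD PlaB, 36.8 and 40.5 CPM in PlaB and 58.5 and 56.3 CPM in DMSO, so that it rose by 2.30 against PlaB (SE 0.143, adjusted p = 4.2e-14) and by 1.73 against DMSO (SE 0.14, adjusted p = 2.83e-10). Dnmt3a was the 1 member that fell, from 230.0 and 214 CPM in PlaB to 106 and 108 CPM (-1.05, SE 0.107, adjusted p = 1.1e-09), a call lost without the low-count filter (-0.91).

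Tet1 rose by 1.06 against PlaB, with 538 and 535 CPM in Dux KD PlaB (SE 0.118, adjusted p = 6.32e-09), and this call was lost under DESeq2's size factors (0.90) and with library size as the only scaling (0.86). Tet3 had 4.78 and 5.26 CPM, a log2 fold change of 0.77 against PlaB, and was the 1 member that remained lower than in DMSO by the call (-1.18, SE 0.181, adjusted p = 1.06e-05). Tet2 had a log2 fold change of 0.25 against PlaB (adjusted p = 0.0868). Against DMSO, 2 of 9 members were called in Dux KD PlaB, Dnmt3l and Tet3, where 11.7% of all genes tested were called. Two-cell-like markers summed to 5.01 to 5.08 CPM in Dux KD PlaB.

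With knockdown of Dux under RA, Tet2, Dnmt3l and Dnmt3b rose. Against RA, 3 of the 9 rose in Dux KD RA and 0 fell, where 10.9% of all genes tested were called. Tet2 was at 212 and 212 CPM in Dux KD RA and at 59.1 and 61.1 CPM in RA (log2 fold change 1.82, SE 0.138, adjusted p = 1.48e-10). Dnmt3l was at 28.8 and 30.6 CPM against 9.43 and 9.69 CPM (1.64, SE 0.167, adjusted p = 2.2e-08), and Dnmt3b at 68.6 and 71.4 CPM against 31.9 and 32.4 CPM (1.12, SE 0.101, adjusted p = 3.11e-09). Both Dux KD RA libraries were above both RA libraries for these 3 genes. Dnmt1, at 318 and 326 CPM, and Uhrf1, at 165 and 158 CPM, lay close to their RA levels. Two-cell-like markers summed to 349 to 364 CPM in Dux KD RA and 466 to 536 CPM in RA. Primitive endoderm markers summed to 105 to 106 CPM in Dux KD RA and 80.0 to 82.6 CPM in RA. Trophectoderm markers summed to 86.5 to 86.8 CPM and 53.4 to 59.8 CPM. The part of these markers in the members' levels was not tested.

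Under Zscan4 overexpression the knockdown gave 0 of 9 members called by edgeR and 0 by DESeq2, where 11.1% of all genes tested were called. Without the fold threshold, 5 of 9 passed an unadjusted p under 0.05, and the same 5 an adjusted p under 0.05. The 11.1% includes the fold threshold and is not the share to set beside that count. Uhrf1 showed the largest difference, 272 and 253 CPM in Dux KD Zscan4 OE against 421.5 and 428 CPM in Zscan4 OE (log2 fold change -0.69, SE 0.0759, adjusted p = 8.1e-08). Tet2 had 268 and 332 CPM against 194 and 201 CPM (0.60, SE 0.132, adjusted p = 0.000813), with a wide gap between its 2 knockdown libraries.

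The effect of Dux KD differed between inducers by a direct test of the difference (an interaction term in the same model). Between PlaB and RA, 4 of 9 members differed (52.2% of all genes tested): the effect on Dnmt1 was higher under PlaB by 2.06 (log2; SE 0.102, adjusted p = 5.44e-16), on Uhrf1 by 1.45 and on Tet3 by 1.11, and the effect on Tet2 was lower under PlaB, at -1.56 (SE 0.19, adjusted p = 4.79e-08). Between PlaB and Zscan4 OE, 5 of 9 differed (49.2% of all genes tested), each with the higher effect under PlaB, by 2.04 for Dnmt1, 1.23 for Dnmt3b, 2.44 for Dnmt3l, 1.97 for Uhrf1 and 1.55 for Tet1. Between RA and Zscan4 OE, 3 of 9 differed (12.3% of all genes tested), by 1.55 for Dnmt3b, 1.77 for Dnmt3l and 1.21 for Tet2, higher under RA. Of these calls, that on Tet3 was lost without PlaB replicate 1 (0.94) with RLE scaling (0.95), with library size only (0.84) and under DESeq2 (0.96).

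Dnmt1 also rose with loss of the Tdpoz super-enhancer under PlaB. Against PlaB, 4 of the 9 members rose in SE KO PlaB and 0 fell, where 52.0% of all genes tested were called. Dnmt1 was at 354 and 379.5 CPM in SE KO PlaB against 103 and 112 CPM in PlaB (log2 fold change 1.77, SE 0.0736, adjusted p = 7.44e-18). Uhrf1, at 173 and 200.1 CPM, had a log2 fold change of 0.65 against PlaB and was lower than in DMSO by the call (-1.11, SE 0.0763, adjusted p = 1.83e-12), which was lost with library size as the only scaling (-0.98). Dnmt3l was at 80.4 and 118.5 CPM against 36.8 and 40.5 CPM (1.36, SE 0.141, adjusted p = 1.69e-09), and Tet3 at 7.33 and 6.90 CPM against 2.57 and 3.31 CPM (1.27, SE 0.193, adjusted p = 1.49e-06).

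The 2 SE KO PlaB libraries lay far apart for Tet1 and Tet2. Tet1 had 638 and 445 CPM, and its rise by 1.08 against PlaB (SE 0.118, adjusted p = 4.93e-09) was 0.80 and no longer called without SE KO PlaB replicate 1. It was also lost under DESeq2's size factors (0.95) and with library size as the only scaling (0.96). Tet2 had 135 and 82.5 CPM and a log2 fold change of -0.12 against PlaB, which was -0.51 without replicate 1 and 0.19 without replicate 2. Against DMSO, 2 of 9 members fell in SE KO PlaB, Uhrf1 and Tet2, where 28.1% of all genes tested were called. The call on Tet2 (-1.22, SE 0.134, adjusted p = 1.41e-08) was lost without SE KO PlaB replicate 2 (-0.91), and Dnmt3l, at 0.79 against DMSO, was called without SE KO PlaB replicate 1 (1.05). Two-cell-like markers summed to 479 to 580 CPM in SE KO PlaB, primitive endoderm markers to 123 to 133 CPM against 31.0 to 36.0 CPM in PlaB, and trophectoderm markers to 134 to 233 CPM. Their part was not tested.

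Tet1 fell with the deletion under RA. It was at 47.8 and 51.5 CPM in SE KO RA and at 134 and 127 CPM in RA, and fell by 1.39 (log2; SE 0.124, adjusted p = 8.64e-10). Dnmt3l rose by 1.08, from 9.43 and 9.69 CPM to 21.1 and 19.2 CPM (SE 0.168, adjusted p = 7.92e-06). These were the 2 of 9 members called, where 17.6% of all genes tested were called. Dnmt3a, at 166 and 166 CPM in SE KO RA and 303 and 305 CPM in RA, had a log2 fold change of -0.87 (adjusted p = 1.43e-07). Without replicate 1 of SE KO RA, whose labels conflict, Tet1 was at -1.34 and Dnmt3l at 1.01, and both calls stood. Two-cell-like markers summed to 51.3 to 54.0 CPM in SE KO RA and 466 to 536 CPM in RA. Primitive endoderm markers summed to 55.9 to 59.8 CPM and 80.0 to 82.6 CPM, and trophectoderm markers to 95.8 to 102 CPM and 53.4 to 59.8 CPM. The trophectoderm sum hides changes in opposite directions. Krt8 (mean 77.7 CPM in SE KO RA and 33.8 CPM in RA) and Cdx2 (0.967 and 0.224 CPM) were called higher. Gata3 (0.508 and 1.44 CPM) was called lower, and Krt18 (19.7 and 21 CPM) was not called. The part of these markers in the members' levels was not tested.

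Under Dux overexpression, Dnmt3l was the member that fell with the deletion. It was at 38.1 and 44.3 CPM in SE KO Dux OE and at 101 and 104 CPM in Dux OE, and fell by 1.32 (SE 0.139, adjusted p = 1.36e-07), the 1 member of 9 called where 6.30% of all genes tested were called. Tet2 kept the low level of Dux OE, with 67.0 and 58.7 CPM and a 95% interval of the log2 difference from -0.28 to 0.29. Fibroblast markers summed to 115 to 117 CPM in SE KO Dux OE and 44.5 to 47.2 CPM in Dux OE, and their part was not tested.

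The effect of the deletion also differed between inducers by the test of the difference. Between PlaB and RA, 3 of 9 members differed (49.0% of all genes tested), higher under PlaB by 2.03 for Dnmt1, 2.47 for Tet1 and 1.11 for Tet3. Between PlaB and Dux OE, 5 of 9 differed (45.1% of all genes tested), higher under PlaB by 2.03 for Dnmt1, 1.06 for Dnmt3b, 2.68 for Dnmt3l, 1.03 for Tet1 and 1.23 for Tet3. Between RA and Dux OE, 2 of 9 differed (20.8% of all genes tested), with the effect on Dnmt3l higher under RA by 2.39 and that on Tet1 lower, at -1.44. The call on Tet3 between PlaB and RA was lost without PlaB replicate 1 (0.94), with RLE scaling (0.98) and under DESeq2 (0.99). Of the calls between PlaB and Dux OE, that on Tet1 was lost without SE KO PlaB replicate 1 (0.75), SE KO Dux OE replicate 2 (0.91) or PlaB replicate 2, that on Dnmt3b without SE KO PlaB replicate 2 (0.96), both also under DESeq2 (0.91 and 0.94), RLE scaling and library size only, and that on Tet3 without SE KO Dux OE replicate 1 (0.97).

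**Figure D4:**
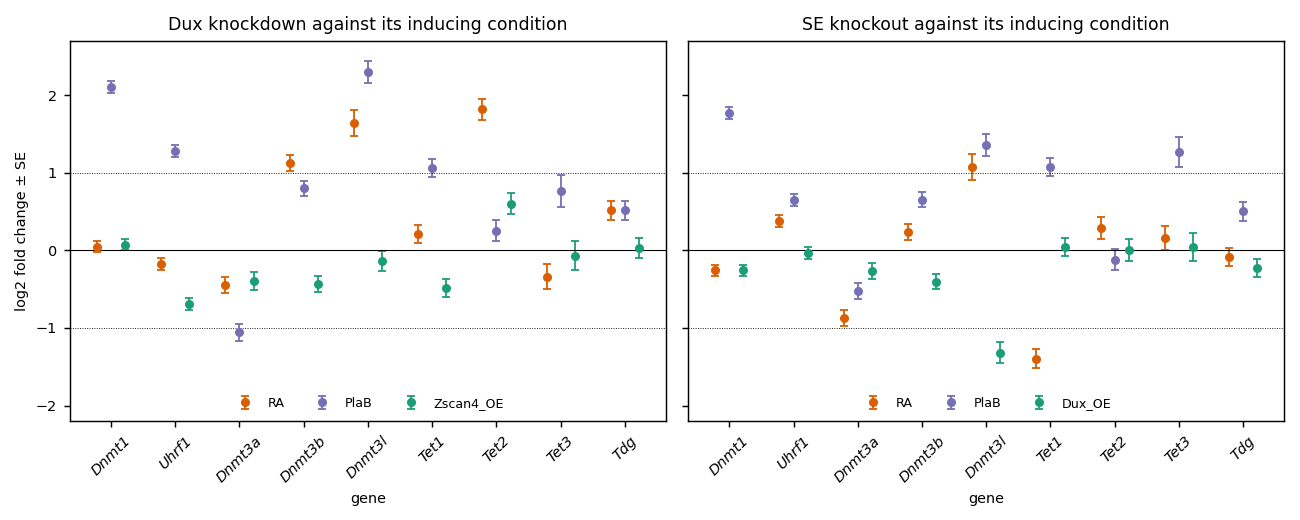
Log2 fold change of each of the 9 genes after Dux KD (left) and SE KO (right) under each inducer, with error bars of ± SE from the edgeR fit. The points for Dnmt1 lie at 2.11 and 1.77 under PlaB and between -0.26 and 0.07 under the other inducers, and those for Dnmt3l lie above 1 under PlaB and RA and below 0 under SE KO with Dux overexpression.

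Over the 15 comparisons between 2 groups, Dnmt3l was called in 9 (5 higher, 4 lower), Tet2 in 6, Tet1 in 5, Uhrf1 in 4, Dnmt1, Dnmt3b and Tet3 in 3 each, Dnmt3a in 1 and Tdg in 0. Comparisons share control libraries, so these counts are not independent of one another. Tdg counts are uncertain, because the pseudogene Tdg-ps2 took more reads than Tdg itself (98.5 to 103 CPM in ESC and 57.0 to 63.4 CPM in PlaB) and the 2 share sequence. Tdg-ps2 was also never called.

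Dnmt3l shares exonic positions with Aire on the opposite strand, and Aire also differed between groups, at 13.1 to 13.9 CPM in DMSO and 1.82 to 2.42 CPM in RA. Aire was at 11.5 to 12.5 CPM in PlaB, 33.1 to 35.2 CPM in Dux KD PlaB and 1.77 to 3.77 CPM in SE KO PlaB, so that it was higher than in PlaB in the first and lower in the second, while Dnmt3l was higher in both. In Dux OE it was at 3.38 to 3.72 CPM and in SE KO Dux OE at 0.77 to 1.24 CPM. The part of Aire reads in the counts of Dnmt3l was not tested.

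The composition of each family moved with its members. Of the summed TPM of the TET genes, Tet1 made up 77.3% and 77.0% in the ESC libraries, 66.3% and 64.5% in RA, 88.9% and 88.3% in Dux OE, 42.8% and 41.9% in Dux KD RA, and 37.5% and 37.5% in SE KO RA. Tet2 held the largest share in Dux KD RA (54.3% and 54.8%) and in SE KO RA (50.1% and 51.3%), the 2 groups in which Tet1 did not lead. Tet3 stayed under 2% in 10 of the 13 groups and reached 2.92% and 3.31% in Dux KD RA, 6.86% and 7.19% in RA and 12.4% and 11.3% in SE KO RA.

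Among the DNMT3 genes, the cofactor Dnmt3l made up 60.3% and 60.2% of the summed TPM in ESC, 37.5% and 35.8% in DMSO, 11.4% and 11.6% in RA and 73.7% and 73.7% in Dux KD PlaB. Dnmt3a took 10.9% and 10.8% in ESC, a mean of 65.8% in RA and 39.2% and 35.6% in PlaB. Of the 2 catalytic enzymes alone, Dnmt3a was 27.5% and 27.1% in ESC and 74.5% and 74.2% in RA, with no overlap between the groups. Over the 13 groups the share of the cofactor was lowest in RA and highest in Dux KD Zscan4 OE (75.3% and 76.3%).

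**Figure D5:**
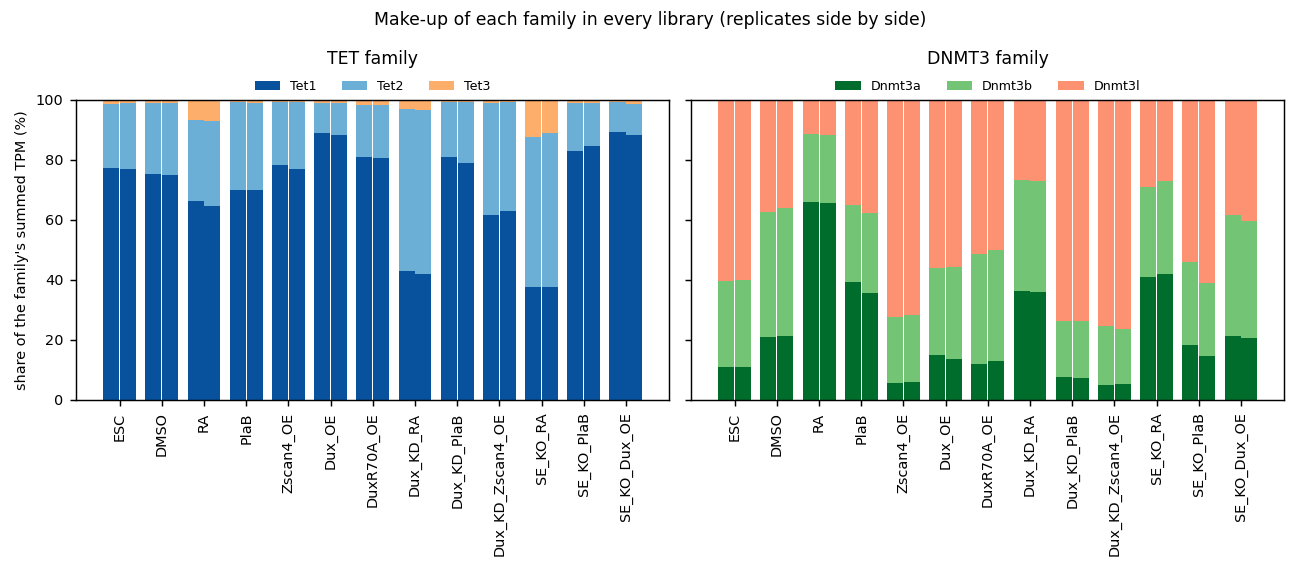
Share of each gene in the summed TPM of the TET family (left) and the DNMT3 family (right), in percent. Stacked bars show the 2 libraries of each of the 13 groups side by side. Tet1 fills most of every bar except Dux KD RA and SE KO RA, and Dnmt3a fills a mean of 65.8% of the RA bars.

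The other proteins of the pathway were described with lists of genes, whose counts stand beside the share of all genes tested that were called in each direction. That share was 26.6% lower and 32.3% higher in PlaB against DMSO, 10.4% lower and 20.6% higher in RA against DMSO, 28.8% lower and 26.1% higher in Dux KD PlaB against PlaB, 26.1% lower and 25.9% higher in SE KO PlaB against PlaB, and 11% lower and 6.57% higher in SE KO RA against RA. Of 9 partners of maintenance methylation, 6 fell and 0 rose in PlaB against DMSO (median log2 fold change -1.32, against 0.22 over all genes tested), among them Uhrf2, a relative of Uhrf1 (-2.29), Ctcf, an insulator protein (-1.99), Hells, a remodeller needed for maintenance (-1.52), and Usp7, a deubiquitinase that binds DNMT1 (-1.35). In RA against DMSO, 3 fell and 0 rose (median -0.56 against 0.11), Cdca7, the activator of Hells (-1.63), Pcna, the replication clamp (-1.48), and Hells (-1.33). In Dux KD PlaB against PlaB, 5 rose and 0 fell (median 1.06 against -0.14), with Uhrf2 at 2.14 and Hells at 1.58, and in SE KO PlaB against PlaB 3 rose and 0 fell, with Uhrf2 at 1.78.

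A list of 9 genes was drawn from the families that hold the readers of methylated CpG. Mbd3, Mbd5 and Mbd6 among them are not known to bind methylated CpG selectively. Of the 9, 5 fell and 1 rose in PlaB against DMSO (median -2.01), with Mbd6 at -4.04 and the NuRD subunit Mbd3 at -2.38. In RA against DMSO 2 rose and 0 fell, Zbtb4 (2.05) and Mbd2 (1.13). Of 10 genes of methyl donor synthesis, 6 fell and 0 rose in PlaB against DMSO (median -1.17), with Gldc, of the glycine cleavage system, at -3.36 and Ahcy, which clears the product of methyl transfer, at -1.92. In RA against DMSO, 3 fell and 0 rose, with Tdh, the threonine dehydrogenase of ESCs, at -3.15. In SE KO RA against RA, 2 fell, Tdh (-3.48) and Mat2a, which makes S-adenosylmethionine (-1.26).

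Of 16 base excision repair genes, which act after TDG, 5 fell and 1 rose in PlaB against DMSO and 4 fell and 1 rose in RA against DMSO, with Gadd45a at -3.54 and -1.82. Of 10 tested heterochromatin factors that guide methylation, 4 fell and 0 rose in PlaB against DMSO, with the histone H3K9 methyltransferases Ehmt2 at -3.92 and Suv39h2 at -3.51. Of 12 regulators of TET and DNMT activity, 5 rose and 4 fell in PlaB against DMSO, with Zscan4d at 11.21 and Dppa3, whose product keeps UHRF1 off chromatin, at 3.00, and with Prdm14, a repressor of the DNMT3 genes, at -3.08. Of 16 DNA replication genes, which mark cycling cells, 5 fell and 2 rose in PlaB against DMSO (median -0.61) and 5 fell and 0 rose in RA against DMSO (median -0.82). Of 9 naive pluripotency genes, 5 fell in PlaB and 4 in RA against DMSO, and 7 fell and 1 rose in SE KO RA against RA, with Esrrb at -2.45. Of 7 tested genes of the formative state, 6 fell and 1 rose in PlaB and 5 fell and 2 rose in RA against DMSO. The part of the cell cycle or of the exit from naive pluripotency in the members' levels was not tested.

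Germline genes that promoter methylation is known to keep silent in ESCs were described the same way. Of 15 such genes, 11 rose and 0 fell in PlaB against DMSO, where 32.3% of all genes tested rose (median log2 fold change 2.58 against 0.22 over all genes tested), with Tex101 at 6.59, Slc25a31 at 5.03, Tuba3a at 4.09 and Dazl at 3.83. In RA against DMSO, 10 rose and 0 fell (median 2.53 against 0.11, with 20.6% of all genes higher), with Dazl at 3.84. In Zscan4 OE against ESC, 9 of the 15 rose and 0 fell (median 1.34, with 7.25% of all genes higher), and in Dux OE against ESC 2 rose and 0 fell (7.38% of all genes higher). In Dux KD PlaB, 8 fell and 0 rose against PlaB (28.8% of all genes lower), and 7 rose and 0 fell against DMSO (median 1.07, with 7.53% of all genes higher), with Dazl at 2.99. In SE KO PlaB, 7 fell and 1 rose against PlaB (26.1% of all genes lower), and 12 rose and 0 fell against DMSO (median 2.44, with 17.1% of all genes higher). In Dux KD RA, 5 rose and 0 fell against RA (6.41% of all genes higher), with Hormad1 at 2.24. In SE KO RA, 5 fell and 0 rose against RA (11% of all genes lower), with Tuba3a at -1.78. The part of the members' levels in those of the germline genes was not tested.

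The genes whose group means followed each member most closely were found by Pearson's r over the 13 group means of log2 CPM, which share control cells and libraries and are given as a description only. For Dnmt1 they were Maco1 (r = 0.982) and Psme3 (0.98), for Uhrf1 Srbd1 (0.978) and Ttc27 (0.963), and for Tet1 Tdh (0.966) and Epp13 (0.962). For Dnmt3l they were Ccnb1-ps (0.96) and Psrc1 (0.933), for Dnmt3b Gtpbp3 (0.921) and Abcf1 (0.921), and for Dnmt3a Tle6 (0.851) and Tanc2 (0.81). For Tet2 they were Gm26564 (0.888) and Snrpb2 (0.885), for Tet3 Cntfr (0.963) and Wfs1 (0.941), and for Tdg its own pseudogene Tdg-ps2 (0.928) and Letm1 (0.804). Among the members themselves, r over the 13 group means was 0.845 for Dnmt3b with Tet1, 0.793 for Dnmt3b with Dnmt3l, 0.779 for Dnmt3l with Tet1, 0.762 for Dnmt1 with Uhrf1 and -0.771 for Dnmt3a with Dnmt3l.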

How the data were processed

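Per the labels, poly(A) RNA-seq libraries were made from mouse ESCs. The deposited table holds raw read counts per gene, which the authors made without normalization; the submitters' processing notes name FastQC, Trimmomatic, STAR, featureCounts and DESeq2 and the mm10 build, with versions and strand setting not given in the sources used here. All 26 libraries mapped to 1 of 13 groups of 2 by title, and 0 columns were left unused. From the counts, edgeR 4.0.16 with limma 3.58.1 in R 4.3.3 fitted 1 quasi-likelihood model to all 13 groups, with a low-count filter that kept 20953 of 55291 genes, TMM scaling, a prior count of 0.125 for fold changes and Benjamini-Hochberg adjustment over all genes tested in each of 15 comparisons and 6 differences between effects. CPM used TMM-scaled totals, and log2 CPM for likeness a prior count of 2. TPM used exon lengths in the table and compares genes within a library only. All 9 members are given in full, and of each gene list at most 4 called genes with the largest change and an average log2 CPM of at least 1. The members and lists were chosen with earlier results of these data known. The model was tested on simulated counts. Alternatives were DESeq2 1.42.0, RLE scaling, library size only, no filter, the compared groups only, the other control, a replicate block and leaving out each library. The floor of 3 counts covers counting error only. Promoter windows were searched with Python 3.11.15.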

Additional observations from a re-analysis of the deposited data

Results flagged for a closer look

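A direct test of the difference between 2 effects (an interaction term in edgeR's quasi-likelihood model, Benjamini-Hochberg adjusted over all genes tested) passed an adjusted p of 0.05 and a log2 difference of 1 for 22 combinations of a member and a pair of inducers. For the 3 Dux KD differences in the order below, 4, 5 and 3 of 9 members passed, against 52.2%, 49.2% and 12.3% of all genes tested. For the 3 SE KO differences, 3, 5 and 2 of 9 passed, against 49.0%, 45.1% and 20.8% of all genes tested. Each value is the log2 effect under the first inducer minus that under the second, and no explanation was tested for any of them.

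For Dux KD, PlaB minus RA, Dnmt1 stood at 2.06 (SE 0.102, adjusted p = 5.44e-16), Uhrf1 at 1.45 (adjusted p = 3.45e-12), Tet2 at -1.56 (adjusted p = 4.79e-08) and Tet3 at 1.11 (SE 0.261, adjusted p = 0.000575). Dnmt1 and Uhrf1 rose with the knockdown under PlaB alone of these 2 inducers, and Tet2 rose under RA alone. For PlaB minus Zscan4 OE, Dnmt1 stood at 2.04, Dnmt3b at 1.23, Dnmt3l at 2.44, Uhrf1 at 1.97 and Tet1 at 1.55 (adjusted p from 8.17e-16 to 1.28e-08). For RA minus Zscan4 OE, Dnmt3b stood at 1.55, Dnmt3l at 1.77 and Tet2 at 1.21 (adjusted p from 5.36e-09 to 2.08e-05). The 2 Dux KD Zscan4 OE libraries differed widely from each other for Dnmt3l (139.7 and 205 CPM) and Dnmt3a (51.7 and 79.8 CPM).

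For SE KO, PlaB minus RA, Dnmt1 stood at 2.03, Tet1 at 2.47 and Tet3 at 1.11 (adjusted p from 8.22e-16 to 0.000309). Tet1 was called in opposite directions under these 2 inducers, 1.08 under PlaB and -1.39 under RA. For PlaB minus Dux OE, Dnmt1 stood at 2.03, Dnmt3b at 1.06, Dnmt3l at 2.68, Tet1 at 1.03 and Tet3 at 1.23 (adjusted p from 9.23e-16 to 0.000226). For RA minus Dux OE, Dnmt3l stood at 2.39 (SE 0.218, adjusted p = 2.41e-09) and Tet1 at -1.44 (SE 0.169, adjusted p = 1.49e-07). Dnmt3l rose with the deletion under PlaB and RA and fell with it under Dux OE.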

How the results depend on the processing

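Of the 21 counts of members called, those of Zscan4 OE, DuxR70A OE (2 comparisons), SE KO PlaB against DMSO and the SE KO difference between PlaB and Dux OE moved by more than 1.5 times. Zscan4 OE against ESC had 2 in place of 0 with DMSO as the control, and 0 to 1 when each library was left out. DuxR70A OE against ESC had 0 in place of 1 under DESeq2, RLE scaling, no low-count filter, library size only, the compared groups only and DMSO as the control, and 0 to 1 with each library left out. With DMSO as the control Dnmt3l turned there from lower to higher, 0.49 (adjusted p = 0.00795), Dnmt3l being lower in DMSO than in ESC. DuxR70A OE against Dux OE had 2 in place of 1 with library size only, no filter and the compared groups only, and 1 to 2 with each library left out. SE KO PlaB against DMSO had 1 in place of 2 with library size only, and 1 to 3 with each library left out. The SE KO difference between PlaB and Dux OE had 3 in place of 5 under RLE, library size only and DESeq2. By no more than 1.5 times moved PlaB against DMSO (6, with 4 to 7), RA against DMSO (5, with 4), Dux KD PlaB against PlaB (5, with 4), SE KO PlaB against PlaB (4, with 3), the Dux KD differences between PlaB and RA (4, with 3 to 5) and between PlaB and Zscan4 OE (5, with 6), and the SE KO difference between PlaB and RA (3, with 2). The causes were not tested. The numbers of the replicates are names only (correlation of same-numbered deviations -0.0473 to 0.0237), and with the replicate block the count was 6 in PlaB against DMSO and no count of members or fold change of a member lost or gained a call. Over all genes, calls went from 1992 to 3811 in Dux OE and from 3550 to 1897 in DuxR70A OE with DMSO in place of ESC, and from 1319 to 803 in SE KO Dux OE against Dux OE without Dux OE replicate 2. Library size as the only scaling moved the median log2 fold change of all genes by 0.257 in PlaB and 0.193 in RA against DMSO, and the members' values are read against it. With 2 libraries a group, the spread rests on the fit over all groups.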
